A study of Homo sapiens with 6 samples.

Results

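The mitosis and cell division genes are 46 genes whose products enter, run and end mitosis: cyclins and CDK1, mitotic kinases, the spindle checkpoint, kinetochores, kinesins, condensin and the cytokinesis machinery. They were listed by symbol for their known roles, in a list drawn up with earlier results of these data known, and all 46 were found among the 58676 gene IDs of the table. Every member passed the filter on low values, which left 15408 genes to test. The 6 libraries came from total RNA of a cell line labelled HCC, read here as hepatocellular carcinoma, and grown in DMEM with serum. Of these, 3 carry the label control and the title 238, and 3 carry the label knockdown and the title sponge, a name for RNA that soaks up a microRNA. The microRNA named for the series is miR-19a. The labels give neither the line's name, the vector, the time after treatment nor whether replicates were separate cultures, so p-values cover only library-to-library spread, possibly technical. The title speaks of treated cells and the design text of a knockdown, so the direction was taken from the group labels.

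Knockdown replicate 2 was left out, because its values were out of step with the row IDs (rank correlation of 0.017 to 0.019 with each other library, against 0.82 to 0.89 among the other 5). The comparison therefore rests on control replicates 1, 2 and 3 and knockdown replicates 1 and 3, and values are given in that order. Reads assigned to genes ranged from 1948940 in control replicate 2 to 19605312 in control replicate 3, with 9296308 and 15198231 in the knockdown libraries. The liver origin was checked on 10 hepatocyte markers, all at 0.5 RPKM or more in each of the 5 libraries. Their summed level was 1525 to 1912 RPKM in control and 1716 and 1822 RPKM in knockdown. Both knockdown libraries lay above the controls for APOC3, SERPINA1 and TF. APOC3 was at 39.5 and 62.5 RPKM against 18.96 to 38.1 RPKM. SERPINA1 was at 93.7 and 97.1 RPKM against 56.2 to 73.5 RPKM, TF at 82.4 and 81.4 RPKM against 55.3 to 64.4 RPKM. APOB was below the controls, at 83.5 and 45.7 RPKM against 85.6 to 134 RPKM. In ALB, APOA1, AFP, TTR, FGB and AHSG the groups overlapped. Of 7 blood and immune markers 3 reached 0.5 RPKM in every library (CD3D, CD14 and LYZ), and HBB was listed at 0 in all of them. The summed level of that list was 44.3 to 51.3 RPKM in control and 46.3 and 52.4 RPKM in knockdown. Within it CD3D, a T cell gene, was at 3.07 to 4.46 RPKM in control and at 6.14 and 6.09 RPKM in knockdown. PTPRC, which marks all white blood cells, was at most 0.0713 RPKM. Of 6 fibroblast markers 4 reached 0.5 RPKM in each control and 3 in each knockdown library, with sums of 63.2 to 83.2 RPKM and of 72.1 and 68.2 RPKM. LUM made up most of these sums at 53.5 to 68.3 RPKM over the 5 libraries, and DCN was at most 0.0102 RPKM. COL1A1 was at 0.732 to 1.99 RPKM in control and 2.33 and 2.16 RPKM in knockdown, and COL1A2 at 7.54 to 11.7 RPKM and at 14.7 and 12.02 RPKM, while PDGFRA was lower in knockdown, at 0.431 and 0.352 RPKM against 0.580 to 1.11 RPKM. Of 4 endothelial markers KDR was listed at 0 in all 5 libraries, and PECAM1 was at 0.513 to 0.661 RPKM in control and 0.360 and 0.322 RPKM in knockdown, with sums of 0.523 to 0.760 RPKM and of 0.406 and 0.388 RPKM. The part of these markers in the results was not tested.

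Most of these genes are silent in resting cells and are transcribed in a wave in G2 and mitosis. In resting and early G1 cells the DREAM complex represses them, and later MYBL2 and FOXM1 activate them, with the cell cycle genes homology region (CHR) and CCAAT boxes in their promoters as the sites of this control. Many of the proteins are then destroyed at the end of mitosis by the ubiquitin ligase APC/C. The messenger RNA of these genes is widely read as a mark of how many cells in a culture are dividing. RNA of a whole culture cannot tell apart fewer dividing cells and less of these RNAs per dividing cell.

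Promoter sequence was not used to list the members, and many but not all of them held motifs of this control in the bases searched. RefSeq promoters (GRCh38.p14, 250 bases before to 50 after the annotated start) were matched for 39 of the 46 members. A CHR motif, spelled TTTGAA or TTCGAA on either strand, lay within 50 bases of the start in 22 of them (56.4%), against 3.16% of the promoters of 9738 other tested genes. Over the full 300 bases the motif was found in 28 members (71.8%) against 10.96% of the others. CCAAT on either strand was found in 27 members (69.2%) against 36.5% of the others, and 16 members held it at least 2 times against 13.7% of the others. A CHR near the start together with a CCAAT box was found in 16 members (41.0%) against 1.42% of the others. Neither motif was found in the bases searched for 5 of the 39 (KIF2C, CENPE, CDC25C, CDC25B and CKAP2). Each gene was searched at 1 annotated start, so motifs at other starts were not counted. TATAAA was about as frequent in both, in 5.13% of the members and 5.48% of the others. A match describes the letters only, and overlaps between motifs were counted for both. A few members are printed in lower case with CHR and CCAAT motifs in capitals, to be read beside the RNA values: MKI67 with the most negative difference, INCENP with separated groups, PLK1 with 1 CHR and 1 CCAAT box, and CCNB2 with 1 CHR, 4 CCAAT boxes and a difference near 0.

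MKI67 promoter, chr10:128126374-128126673, minus strand: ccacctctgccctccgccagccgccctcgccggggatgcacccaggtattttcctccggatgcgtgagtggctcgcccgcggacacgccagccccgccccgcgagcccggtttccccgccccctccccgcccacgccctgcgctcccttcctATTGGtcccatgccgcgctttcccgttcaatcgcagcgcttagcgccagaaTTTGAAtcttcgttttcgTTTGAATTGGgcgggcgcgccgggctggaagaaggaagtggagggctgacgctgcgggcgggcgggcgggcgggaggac
INCENP promoter, chr11:62123761-62124060, plus strand: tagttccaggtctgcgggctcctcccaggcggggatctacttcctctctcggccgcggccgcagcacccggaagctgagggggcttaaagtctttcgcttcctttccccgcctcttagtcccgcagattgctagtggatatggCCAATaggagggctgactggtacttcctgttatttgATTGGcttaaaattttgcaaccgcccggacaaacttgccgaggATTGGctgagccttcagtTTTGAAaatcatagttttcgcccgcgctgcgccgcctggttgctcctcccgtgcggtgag
PLK1 promoter, chr16:23678639-23678938, plus strand: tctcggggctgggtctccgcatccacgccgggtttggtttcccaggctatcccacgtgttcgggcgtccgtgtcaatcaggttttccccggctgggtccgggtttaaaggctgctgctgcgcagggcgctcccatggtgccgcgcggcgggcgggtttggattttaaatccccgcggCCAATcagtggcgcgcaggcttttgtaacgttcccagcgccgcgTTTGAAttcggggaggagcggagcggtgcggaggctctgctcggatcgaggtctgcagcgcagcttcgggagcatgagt
CCNB2 promoter, chr15:59104896-59105195, plus strand: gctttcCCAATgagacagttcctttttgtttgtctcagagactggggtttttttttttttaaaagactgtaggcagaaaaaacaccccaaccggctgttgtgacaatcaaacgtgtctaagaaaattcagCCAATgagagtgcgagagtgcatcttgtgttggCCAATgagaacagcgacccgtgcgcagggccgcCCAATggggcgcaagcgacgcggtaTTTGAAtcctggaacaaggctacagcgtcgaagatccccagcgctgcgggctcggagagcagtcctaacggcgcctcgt

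In MKI67 the CHR motifs begin at -47 and -29 from the start, and the second overlaps a CCAAT box on the other strand that begins at -24. In INCENP the CHR begins at -10, with CCAAT boxes at -28, -71 and -107. PLK1 has its CHR at -29 and its CCAAT box at -73, and CCNB2 has the same CHR position, with CCAAT boxes at -54, -87, -120 and -244. The 22 members with a CHR near the start had a median log2 difference of -0.32 in RNA, and the 17 without one there had -0.24. Among the 17, CDC20, SMC4, CDK1, KIF23, NCAPD2 and TOP2A held a CHR farther from the start. Both knockdown libraries lay below all controls in 10 of the 22 and 7 of the 17, against 13.6% of all tested genes, and a difference between these sets was not tested.

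**Figure D1:**
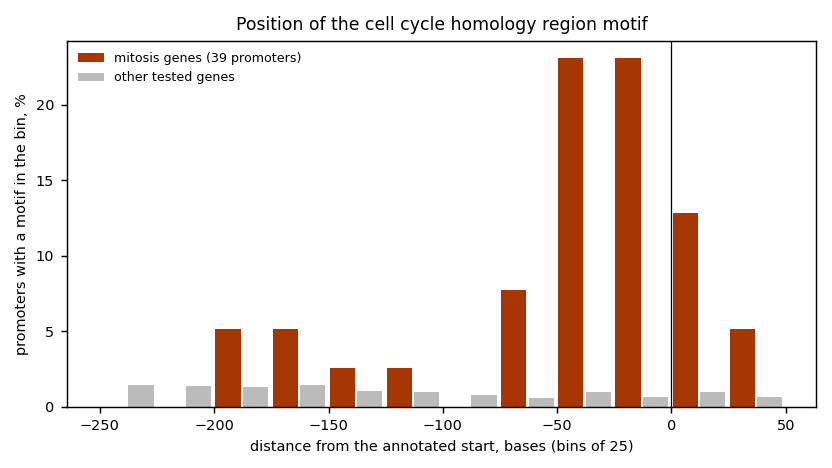
Share of promoters (vertical axis, percent) with a CHR motif whose first base falls in each 25-base bin of distance from the annotated start (horizontal axis, bases), for 39 mitosis genes and 9738 other tested genes. The members reach 23.1% in each of the 2 bins before the start, where the other genes are at 0.986% and 0.637%.

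The microRNA pairs with its targets through its seed, bases 2 to 8, shown in capitals beside the related miR-19b.

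hsa-miR-19a-3p: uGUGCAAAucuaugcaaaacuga
hsa-miR-19b-3p: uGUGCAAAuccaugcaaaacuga

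Both share the seed, which matches TTTGCAC in a transcript. This site was found in the longest annotated 3' UTR of 3 of the 46 members (6.52%), against 15.3% of 11721 other tested coding genes. The members' 3' UTRs were also shorter, with a median of 799.5 bases against 1331. The 3 members are CCNA2, BUB3 with 2 sites and PRC1, whose sites are in capitals within at most 30 bases.

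CCNA2 site: gctttttcttgtTTTGCACtggtggtctgt
BUB3 first site: ggcaacttcaaaTTTGCACccccaggtatc
BUB3 second site: ttaaaataaagtTTTGCACatg
PRC1 site: gagatctggaacTTTGCACatgtcactact

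Their log2 differences were -0.52, -0.25 and -0.30, and the median of the 43 members without a site was -0.28.

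The comparison of knockdown with control asked whether lower availability of miR-19 goes with another level of the cell division program. The members were mostly lower in the knockdown libraries, but no single gene passed the test. The spread between controls (SD of their list medians, 0.284) was as large as the difference in size. In limma on log2(RPKM + 0.5), 40 of 46 members had a log2 difference below 0, against 50% of all tested genes, and the median was -0.29 against 0.00 over all tested genes. At an adjusted p under 0.05, limma called 0 of 46 members lower and 0 higher, with 0% of all tested genes called in either direction, and the smallest adjusted p of a member was 0.71. At an unadjusted p under 0.05, 4 members were lower (MKI67, KIF20A, KIF23 and NUSAP1), which is 8.70% against 2.54% of all tested genes, and 0 were higher, against 3.8%. Both knockdown libraries lay below all 3 controls for 19 members, or 41.3% against 13.6% of tested genes, and above all 3 for 0 members against 14.3%. There were 30 members with a log2 difference below -0.2, against 28.3% of tested genes, and 6 below -0.5, against 7.97%. Voom, a weighted linear fit in limma to log2 counts from recovered reads, called 0 members. With it 7 members were lower at an unadjusted p under 0.05, where 5.71% of all tested genes were. With weights for each sample voom gave 0 and 7 again, against 5.98% of all tested genes.

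**Figure D2:**
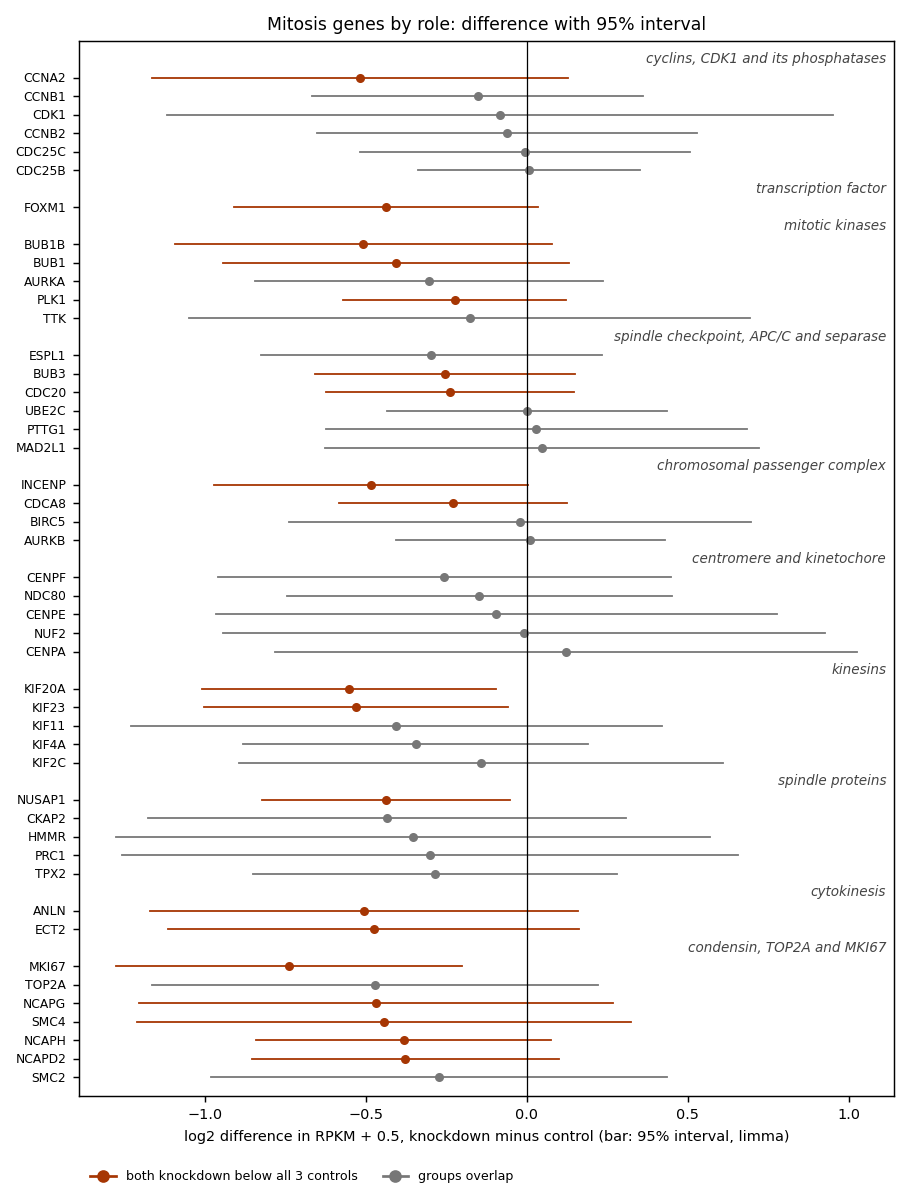
Log2 difference between knockdown and control (horizontal axis, RPKM + 0.5) for each of the 46 members, grouped by role, with the 95% interval from limma over 3 control and 2 knockdown libraries. Brown marks the 19 members whose knockdown values both lie below all controls, and the intervals of MKI67, KIF20A, KIF23 and NUSAP1 are the 4 that do not reach 0.

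The controls did not form a tight group. For each library the median over members of its log2 level minus the mean of the controls was -0.06, -0.27 and 0.29 in control replicates 1, 2 and 3, and -0.21 and -0.38 in knockdown replicates 1 and 3. Control replicate 2 thus lay below knockdown replicate 1, and the groups overlapped. Control replicate 3 held the highest value of 36 of the 46 members, against 5699 of the 15408 tested genes. Knockdown replicate 3 held the lowest value of 25 members, against 3879 of the tested genes. Control replicate 2 held the lowest of 16 members, against 6516 of the tested genes. Over all tested genes the same medians were -0.12 and 0.13 in control replicates 2 and 3, so these libraries stood apart in the same direction there, by less. With scaling by a trimmed mean of log ratios, control replicate 3 was highest for 25 members. The members' median was -0.19 without control replicate 3, with 32 of 46 below 0, and -0.42 without control replicate 2, with 46 of 46 below 0. All tested genes shifted too, by less. Their median was 0.047 without control replicate 3, with 45.1% below 0, and -0.045 without control replicate 2, with 55.3% below 0. Both knockdown libraries lay below the remaining controls for 37 members without control replicate 2 (25.4% of tested genes) and for 19 without control replicate 3 (18.5%). The count of members lower at an unadjusted p under 0.05 was 10 without control replicate 2 (4.02% of tested genes), 1 without control replicate 3 (1.82%), 2 without control replicate 1 (1.88%) and 0 without knockdown replicate 3 (0.437%). Control replicate 3 had the lowest share of mitochondrial reads (4.94%) and control replicate 2 the highest (10.4%), with 8.30% and 7.83% in the knockdown libraries, and the part of these shares in the result was not tested. Depth is thinnest in control replicate 2, where the median member rests on 156 reads, a counting error of 8.01%, against 940 to 2416.5 reads in the other controls (3.26% and 2.03%) and 785.5 and 1186 in the knockdown libraries.

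**Figure D3:**
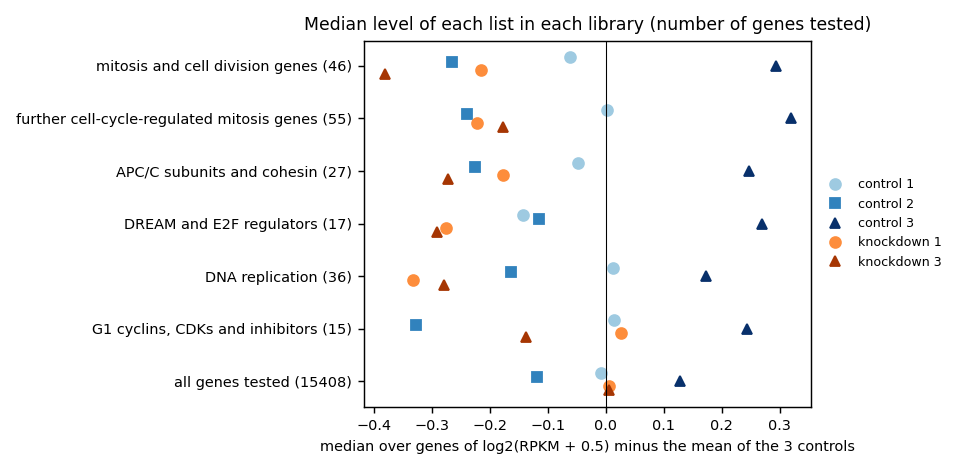
Median over the genes of each list of log2(RPKM + 0.5) minus the mean of the 3 controls (horizontal axis), 1 point per library, for the mitosis genes, 5 related lists and all tested genes. In the mitosis genes control replicate 2 (-0.27) lies to the left of knockdown replicate 1 (-0.21), and control replicate 3 (0.29) lies far to the right.

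The 7 genes of chromosome structure all lay below 0, with a median of -0.44. Both knockdown libraries lay below all controls (separated groups) in 5 of them, against 13.6% of all tested genes. Leaving out control replicate 3 gave a median of -0.25, and leaving out knockdown replicate 3 gave -0.27. MKI67 (ENSG00000148773, chr10:128096659-128126385) encodes Ki-67, the surface coat of mitotic chromosomes and the standard marker of dividing cells. It measured 27.04, 32.5 and 35.7 RPKM in the controls against 22.1 and 15.8 RPKM in the knockdown libraries, with a control mean of 31.7 ± 4.38 RPKM (SD, n = 3) and a knockdown mean of 18.97 ± 4.47 RPKM (SD, n = 2). Both knockdown values lay under the lowest control, and the log2 difference was -0.74 (SE 0.21), with an unadjusted p of 0.0159 and an adjusted p of 0.71 in limma. TOP2A, the topoisomerase that untangles sister chromatids, measured 47.5, 40.7 and 69.5 RPKM in the controls against 42.4 and 31.9 RPKM in the knockdown libraries. Here control replicate 2 lay under knockdown replicate 1, and the difference was -0.47 (SE 0.28). Condensin, the ring that compacts chromosomes, is built from SMC2 and SMC4 with NCAPD2, NCAPG and NCAPH in its first form. NCAPD2, its most abundant subunit here, measured 58.1, 58.2 and 72.95 RPKM in the controls against 54.01 and 42.97 RPKM in the knockdown libraries, and NCAPH 25.1, 25.8 and 30.7 RPKM in the controls against 23.4 and 18.2 RPKM in the knockdown libraries. Both genes had separated groups, with differences of -0.38 (SE 0.19) and -0.38 (SE 0.18). SMC4 measured 9.74, 9.65 and 17.7 RPKM in the controls against 9.34 and 7.91 RPKM in the knockdown libraries, where the knockdown values lay just under those of control replicates 1 and 2 and well under control replicate 3. NCAPG (-0.47) was also separated and SMC2 (-0.27) was not. Exons of other genes cover 25.6% of SMC4 and 33.1% of NCAPG on the other strand, and strand use in the counting is not stated.

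The kinesins, motors that move along or take apart spindle microtubules, were below 0 in 5 of 5 with a median of -0.40. KIF20A (ENSG00000112984, chr5:138178719-138187715), which carries the chromosomal passenger complex to the central spindle, measured 41.3, 39.8 and 44.9 RPKM in the controls against 33.1 and 24.5 RPKM in the knockdown libraries, with a control mean of 42.00 ± 2.63 RPKM (SD, n = 3) and a knockdown mean of 28.8 ± 6.10 RPKM (SD, n = 2). The 3 controls lay within a narrow range with both knockdown values below it, a log2 difference of -0.55 (SE 0.18) with an unadjusted p of 0.0258. KIF23 (ENSG00000137807, chr15:69414246-69448427), a motor of the centralspindlin complex in cytokinesis, measured 8.74, 11.9 and 11.3 RPKM in the controls against 7.44 and 6.88 RPKM in the knockdown libraries, a difference of -0.53 (SE 0.19) with separated groups. KIF11, the motor that pushes spindle poles apart, measured 17.1, 14.3 and 29.02 RPKM in the controls against 16.3 and 12.7 RPKM in the knockdown libraries. Its groups overlapped because control replicate 2 lay under knockdown replicate 1, and the SE of its difference of -0.40 was 0.33. KIF4A (-0.35), a chromosome-bound motor, and KIF2C (-0.14), which depolymerises microtubules at kinetochores, had overlapping groups too. The kinesin median was -0.18 without control replicate 3, with 4 of 5 below 0, and -0.26 without knockdown replicate 3.

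Both cytokinesis genes lay below all controls in both knockdown libraries, as did 13.6% of all tested genes. ANLN, the scaffold of the contractile ring, measured 31.8, 34.2 and 51.3 RPKM in the controls against 30.9 and 23.2 RPKM in the knockdown libraries, a difference of -0.51 (SE 0.27). ECT2, which activates RhoA at the cleavage site, differed by -0.47 (SE 0.25) with separated groups. In both genes control replicate 3 stood well above the other controls, and the median of the pair was -0.28 without it and -0.49 with it. Without knockdown replicate 3 that median was -0.29.

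The spindle proteins were below 0 in 5 of 5 with a median of -0.35, and 1 of them had separated groups, against 13.6% of all tested genes. Leaving out control replicate 3 gave a median of -0.19, and with knockdown replicate 3 left out 4 of 5 were below 0. The separated gene, NUSAP1 (ENSG00000137804, chr15:41332694-41381050), which bundles microtubules near chromosomes, measured 7.77, 8.92 and 8.71 RPKM in the controls against 5.91 and 6.32 RPKM in the knockdown libraries. Its difference of -0.44 (SE 0.15) had an unadjusted p of 0.0322. Exons of the overlapping gene model AC087721.2 cover 62.2% of its exon bases, and that model was listed at 0 in all 5 libraries, so the level of NUSAP1 is uncertain. TPX2, which activates AURKA on the spindle, measured 105, 90.4 and 139 RPKM in the controls against 95.3 and 84.7 RPKM in the knockdown libraries, with control replicate 2 inside the knockdown range. HMMR (-0.35) and CKAP2 (-0.44), a pair of spindle-pole and microtubule proteins, had wide control ranges of 18.3 to 42.6 and 11.6 to 22.0 RPKM. PRC1, which crosslinks the central spindle, was the lowest member in every library, with 0.591, 1.39 and 0.563 RPKM in the controls against 0.818 and 0.345 RPKM in the knockdown libraries. Its groups overlapped and the values rest on 15 to 61 reads. Exons of other genes, the model AC068831.7 (0.574 to 1.15 RPKM) and PRC1-AS1 on the other strand, cover 58.4% of its exon bases, so this low level is uncertain.

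**Figure D4:**
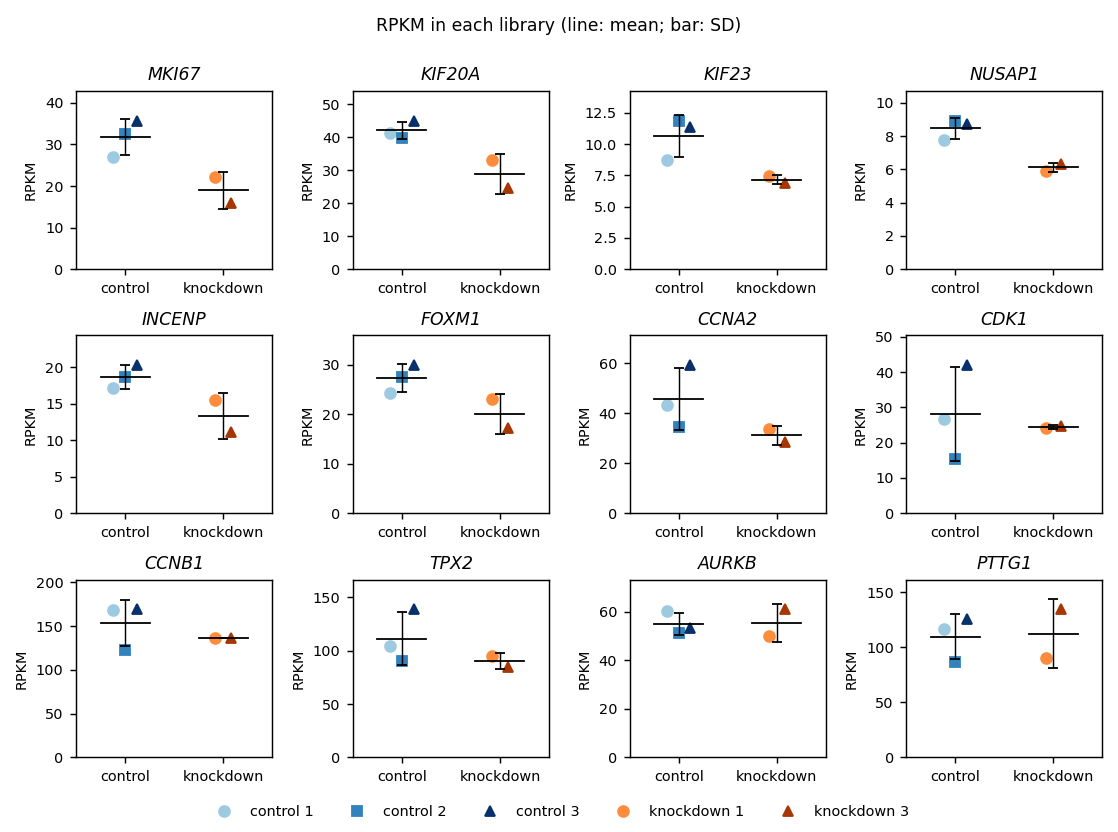
RPKM (vertical axis) of 12 members in each of the 5 libraries, with the mean as a line and the SD as a bar. In the top row the knockdown points lie below all controls, while in CDK1, CCNB1, TPX2, AURKB and PTTG1 the groups overlap.

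Among the mitotic kinases, 5 of 5 lay below 0 with a median of -0.30. Without control replicate 3 this was 4 of 5 with a median of -0.20, and without control replicate 2 the median was -0.48. PLK1, which drives mitotic entry and spindle assembly, measured 30.9, 30.5 and 32.5 RPKM in the controls against 25.3 and 28.2 RPKM in the knockdown libraries. The controls agreed closely and both knockdown values lay below them, a difference of -0.22 (SE 0.14) with an adjusted p of 0.73. BUB1B, the checkpoint kinase-like protein BUBR1, measured 16.3, 13.99 and 21.4 RPKM in the controls against 13.4 and 10.4 RPKM in the knockdown libraries and differed by -0.51 (SE 0.23). BUB1, which marks kinetochores for the checkpoint, was separated as well at -0.41 (SE 0.21). AURKA, the kinase of the spindle poles, measured 35.6, 25.6 and 38.5 RPKM in the controls against 27.5 and 25.4 RPKM in the knockdown libraries. Control replicate 2 lay between its knockdown values, and TTK, the kinase that starts the checkpoint, also overlapped (-0.18).

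FOXM1 (ENSG00000111206, chr12:2857681-2877155), the transcription factor that activates many of the other members in G2, measured 24.3, 27.4 and 29.9 RPKM in the controls against 22.97 and 17.3 RPKM in the knockdown libraries. Both knockdown values lay below the controls, the one of knockdown replicate 1 by a small margin, with a difference of -0.44 (SE 0.19) and an adjusted p of 0.71. Without knockdown replicate 3 the difference was -0.24. MYBL2, the other activator named above, measured 73.7, 77.0 and 70.1 RPKM in the controls against 69.9 and 74.4 RPKM in the knockdown libraries. Its groups overlapped, with a difference of -0.03 (SE 0.14).

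The genes of mitotic entry split. CCNA2 (ENSG00000145386, chr4:121816444-121823933), the cyclin of S and G2 phase, measured 43.2, 34.7 and 59.3 RPKM in the controls against 33.9 and 28.4 RPKM in the knockdown libraries, with knockdown replicate 1 just under control replicate 2 and a difference of -0.52 (SE 0.26). CDK1 (ENSG00000170312, chr10:60778331-60794852), the kinase that drives mitosis, measured 26.7, 15.4 and 42.00 RPKM in the controls against 24.03 and 24.8 RPKM in the knockdown libraries. The controls spread from below to above both knockdown values, so its difference of -0.08 has a 95% interval of -1.12 to 0.95. CCNB1, the cyclin that activates CDK1, measured 168, 123 and 169 RPKM in the controls against 136 and 137 RPKM in the knockdown libraries, and it too had control replicate 2 below the knockdown values. CCNB2, a second B-type cyclin, differed by -0.06. CDC25B and CDC25C, phosphatases that remove the inhibitory phosphates from CDK1, lay near 0. CDC25B measured 38.9, 39.01 and 42.8 RPKM in the controls against 40.02 and 40.8 RPKM in the knockdown libraries, the tightest set of values among the members described, with a difference of 0.01 and a 95% interval of -0.34 to 0.35. CDC25C differed by -0.01. The median of this group was -0.07 with 5 of 6 below 0. Without control replicate 3 it was 0.03 with 2 of 6, without control replicate 2 it was -0.28 with 6 of 6, and without knockdown replicate 3 it was -0.11 with 6 of 6.

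The spindle checkpoint and the APC/C pathway were below 0 in 3 of 6 with a median of -0.12. Without control replicate 2 this was 6 of 6 with a median of -0.18, and without knockdown replicate 1 it was 3 of 6 with -0.07. CDC20, the activator of the APC/C in mitosis, measured 167, 149.8 and 161 RPKM in the controls against 129.9 and 139.8 RPKM in the knockdown libraries, with separated groups and a difference of -0.24 (SE 0.15). BUB3, a checkpoint protein that is expressed in most cells, measured 19.5, 23.2 and 18.5 RPKM in the controls against 17.4 and 16.5 RPKM in the knockdown libraries and was separated too, here with control replicate 2 as the highest library. MAD2L1, which holds CDC20 inactive, measured 22.1, 13.6 and 23.8 RPKM in the controls against 19.9 and 19.9 RPKM in the knockdown libraries. UBE2C, the ubiquitin-conjugating enzyme of the APC/C, measured 81.1, 67.4 and 81.2 RPKM in the controls against 69.8 and 83.4 RPKM in the knockdown libraries. PTTG1, securin, the inhibitor of separase, measured 116, 86.7 and 126 RPKM in the controls against 90.6 and 135 RPKM in the knockdown libraries. In these 3 genes the groups overlapped, with differences of 0.05, 0.00 and 0.03, and the 95% interval for PTTG1 ran from -0.62 to 0.68. In UBE2C and PTTG1 knockdown replicate 3 was the highest of the 5 libraries. ESPL1, separase itself, differed by -0.30.

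The chromosomal passenger complex, which corrects faulty attachments and guides cytokinesis, is made of the kinase AURKB with INCENP, BIRC5 and CDCA8. The median of the 4 was -0.12, or -0.26 without control replicate 2, with values that differed widely between members. INCENP, the scaffold, measured 17.1, 18.6 and 20.3 RPKM in the controls against 15.6 and 11.1 RPKM in the knockdown libraries, with separated groups and a difference of -0.48 (SE 0.20) at an unadjusted p of 0.0517. AURKB measured 60.1, 51.3 and 53.3 RPKM in the controls against 49.9 and 60.95 RPKM in the knockdown libraries, where knockdown replicate 1 was the lowest and knockdown replicate 3 the highest of the libraries, and its difference was 0.01 with a 95% interval of -0.41 to 0.43. BIRC5, survivin, measured 29.6, 17.9 and 31.9 RPKM in the controls against 22.95 and 27.8 RPKM in the knockdown libraries, with the knockdown values between control replicates 2 and 1. CDCA8, borealin, was separated at -0.23 (SE 0.14). Whether INCENP and AURKB differ in their response was not tested.

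None of the 5 centromere and kinetochore genes had separated groups, against 13.6% of all tested genes with both knockdown libraries below the controls, and their median was -0.09. CENPA, the histone H3 variant of centromeres, measured 8.46, 3.88 and 7.74 RPKM in the controls against 5.97 and 8.13 RPKM in the knockdown libraries, the highest difference among the members at 0.12 (SE 0.36), and control replicate 2 rests on 15 reads. CENPF, a large kinetochore protein, measured 10.5, 10.8 and 17.4 RPKM in the controls against 12.1 and 8.98 RPKM in the knockdown libraries, and NDC80, the microtubule anchor, 16.03, 13.4 and 22.1 RPKM in the controls against 15.8 and 14.5 RPKM in the knockdown libraries. In both, control replicate 3 was well above the other libraries, which overlapped. CENPE, a kinetochore motor, and NUF2, the partner of NDC80, differed by -0.09 and -0.01. Without control replicate 3, 1 of these 5 genes was below 0 and the median was 0.20, and without control replicate 2 it was 5 of 5 with -0.34. Without knockdown replicate 1 the median was -0.17 and without knockdown replicate 3 it was -0.05.

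The members also differed along exon length. The 23 members with the shorter summed exons had a median difference of -0.15 and the 23 longer ones -0.40, with a Spearman correlation of -0.44 across the 46 members, against -0.23 across all tested genes. These are descriptions of genes measured in the same 5 libraries. MKI67 has the longest exon sum of the members, 12807 bases, and UBE2C the shortest, 1286 bases. After trends with length and GC were taken out of every library, the shorter and longer members were at -0.14 and -0.32, the correlation across members was -0.11, the members' median was -0.30 and 43 of 46 lay below 0. Before that removal, the 23 members of lower GC percent had a median of -0.40 and the others -0.24. The Spearman correlation with GC was 0.18 across members and 0.27 across all tested genes. Median GC was 43.8% in the members and 48.3% in all tested genes. The 23 members of lower mean RPKM had a median of -0.30 and the others -0.24.

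**Figure D5:**
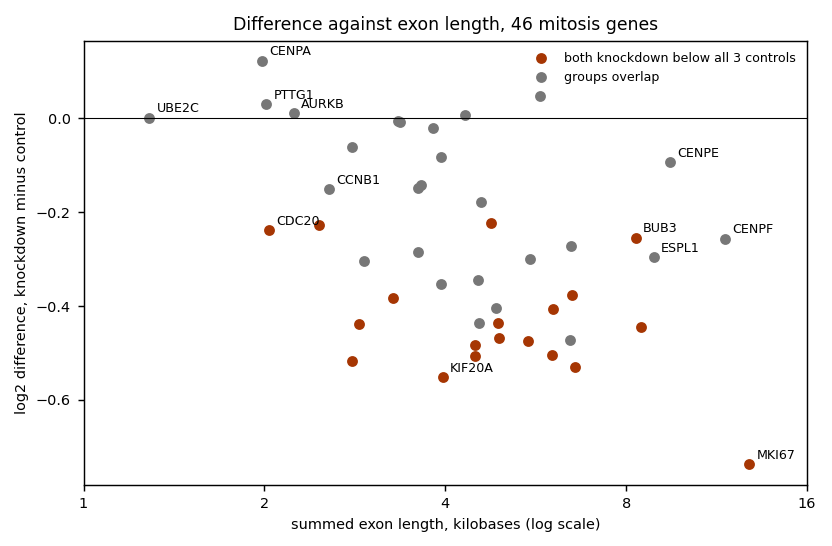
Log2 difference (vertical axis) against summed exon length (horizontal axis, kilobases, log scale) for the 46 members. Of the 5 shortest genes UBE2C, CENPA, PTTG1 and AURKB lie at or just above 0 and CDC20 at -0.24, and MKI67, the longest, lies lowest at -0.74.

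Other genes of the same pathways, in lists written out by name, gave these counts, with 0 past the threshold in each list (limma, smallest adjusted p 0.71). Of 55 further mitosis genes 45 were below 0, against 50% of all tested genes, with a median of -0.18. Both knockdown libraries lay below the controls for 19 (34.5%, against 13.6% of all tested genes). At an unadjusted p under 0.05 in limma 6 were lower (10.9% against 2.54%). Leaving out control replicate 3 gave 37 below 0 with a median of -0.09, and leaving out control replicate 2 gave 48 with -0.35. Among them HJURP, the chaperone that loads CENPA, differed by -0.71 (SE 0.16) and KIF14, a cytokinesis kinesin, by -0.68 (SE 0.26). PKMYT1, a kinase that inhibits CDK1, was at 0.33 (SE 0.26) and MIS18A, which licenses CENPA loading, at 0.15 (SE 0.16). Of 27 APC/C, cohesin and condensin II genes, which most cells express throughout the cycle, 19 were below 0 with a median of -0.26, which became -0.10 with control replicate 3 left out and -0.40 with control replicate 2 left out. ANAPC1, the largest APC/C subunit, differed by -0.74 (SE 0.21) and NCAPD3 of condensin II by -0.73 (SE 0.17), while the small subunits ANAPC16 and ANAPC11 were at 0.61 (SE 0.26) and 0.32 (SE 0.22). ANAPC16 measured 12.6, 9.26 and 15.7 RPKM in the controls against 16.8 and 21.5 RPKM in the knockdown libraries, above all of them. Of 17 DREAM and E2F regulators 16 were below 0 with a median of -0.36. Both knockdown libraries lay below the controls for 8 (47.1%, against 13.6% of all tested genes). At an unadjusted p under 0.05 in limma 3 were lower (17.6% against 2.54%). The median became -0.26 without control replicate 3, -0.40 without control replicate 2 and -0.27 without knockdown replicate 3. Lowest were the repressor E2F8 at -0.73 (SE 0.21) and the pocket protein RBL1 at -0.57 (SE 0.21), with TFDP2 at 0.08 (SE 0.22).

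Next to the mitosis genes, 36 DNA replication genes had the same median of -0.29, with 32 below 0. Both knockdown libraries lay below the controls for 19 (52.8%, against 13.6% of all tested genes). At an unadjusted p under 0.05 in limma 14 were lower (38.9% against 2.54%). In that list the library medians of the groups did not overlap, at -0.16 to 0.17 in control and -0.33 and -0.28 in knockdown. Those of the DREAM and E2F regulators did not overlap either, at -0.14, -0.12 and 0.27 in control and -0.27 and -0.29 in knockdown. For the replication genes, leaving out control replicate 3 gave 27 below 0 with a median of -0.26, and leaving out control replicate 2 gave 33 with -0.42. UHRF1 and MCM6 differed by -0.60 (SE 0.14) and -0.57 (SE 0.16), and CDT1, which loads the replicative helicase, was above the controls in both knockdown libraries at 0.32 (SE 0.17), with RFC2 at 0.23 (SE 0.25). The difference between these lists was not tested. Of 15 tested genes among 17 G1 cyclins, CDKs and inhibitors, 8 were below 0 with a median of -0.04, which became -0.18 with control replicate 2 left out and 0.09 with control replicate 3 left out. CDC25A, the phosphatase that activates CDK2, and the G1 cyclin CCND1 differed by -0.55 (SE 0.17) and -0.54 (SE 0.18), and the CDK inhibitors CDKN1A and CDKN2B by 0.41 (SE 0.25) and 0.26 (SE 0.20).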

How the data were processed

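The authors deposited 1 table of RPKM values per gene and library, as the table's name in the labels states. HISAT2 and GRCh38 are named in the submitters' processing notes, and for the read counter, annotation and strand setting the sources used here give nothing. All 58676 gene IDs were found in GENCODE release 29 (GRCh38), which gave symbols, exon lengths and 3' UTRs. In the 5 libraries used, 100% of the values above 0 times exon length were whole multiples of 1 step (tolerance 0.002 of a read), read as assigned reads. Knockdown replicate 2 was left out.

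Differences were fitted with limma 3.58.1 (R 4.3.3; lmFit, then eBayes with trend) on log2(RPKM + 0.5). Tests were two-sided. The 15408 genes tested reached 0.5 RPKM in 3 or more of the 5 libraries, with Benjamini-Hochberg adjusted p under 0.05 as threshold. Fold changes on this scale understate changes of low genes. The code was tested on simulated data. The members, the gene lists and the rule for the genes described were chosen with earlier results of these data known. That rule takes members past the threshold, the 10 separated members of smallest unadjusted p, a written list of 22 members and all members above 0, and from each other list the 2 genes of smallest unadjusted p in each direction. Alternatives were other pseudocounts (0.1 and 1), filters, a trimmed-mean scaling, no trend, voom on recovered reads with and without sample weights, removal of length and GC trends, a replicate block, and each library left out in turn. The counts of separated members and of members at an unadjusted p under 0.05 under other settings were added after seeing the data. The values of MYBL2 were added then too, outside the rule for the genes described. Counting errors cover counting only.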

Additional observations from a re-analysis of the deposited data

How the results depend on the processing

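The count of members past the threshold was 0 in limma and under all 15 alternatives. Over them the members' median ran from -0.42 (replicate block, or without control replicate 2) to -0.19 (without control replicate 3), and the count below 0 from 32 to 46. The share of all tested genes below 0 ran from 45.1% (without control replicate 3) to 55.3% (without control replicate 2). Members lower at an unadjusted p under 0.05 were 7 with trimmed-mean scaling (3.58% of all tested genes), 7 with voom (5.71%), 7 with sample weights (5.98%), 7 with length and GC trends removed (3.70%) and 9 with the replicate block (3.05%), and 0 to 10 when leaving out 1 library (0.437% to 4.02%). Separated members were 23 with trimmed-mean scaling (14.9% of all tested genes) and 19 to 37 when leaving out 1 library (18.5% to 28.1%). All genes called were 4 with voom with sample weights and 40 with the replicate block, none of them a member. The block has 1 residual degree of freedom and sets control replicate 2 aside. Same-numbered libraries correlated in their deviations at -0.17 for number 1 and 0.02 for number 3, and the labels tie the numbers to no shared culture. Of 689 single-gene values 51 changed sign, in 16 members, and the cause was not tested. With trimmed-mean scaling the values of changed sign were CDC25C 0.0045 and NUF2 0.0035. With voom the values of changed sign were MAD2L1 -0.013, UBE2C -0.019 and CENPA -0.049. With voom with sample weights the values of changed sign were CDC25C 0.075, MAD2L1 -0.065, UBE2C -0.050, PTTG1 -0.026, AURKB -0.068 and CENPA -0.16. With length and GC trends removed the values of changed sign were CDC25B -0.14, UBE2C -0.057, PTTG1 -0.030, AURKB -0.13 and CENPE 0.017. With the replicate block the values of changed sign were CDC25B -0.014, MAD2L1 -0.20, UBE2C -0.087, PTTG1 -0.13, AURKB -0.036 and CENPA -0.20. Ranges over the libraries left out were CCNB2 -0.26 to 0.066, CDC25B -0.017 to 0.052, BIRC5 -0.28 to 0.13, NUF2 -0.34 to 0.28, MAD2L1 -0.20 to 0.20, UBE2C -0.13 to 0.13, PTTG1 -0.26 to 0.31, AURKB -0.13 to 0.15, CENPA -0.20 to 0.33, CDK1 -0.45 to 0.26, CDC25C -0.11 to 0.14, TTK -0.47 to 0.10, CENPE -0.36 to 0.20, NDC80 -0.31 to 0.045, KIF2C -0.42 to 0.036, PRC1 -0.62 to 0.020. With 1 knockdown library left, that library is assumed to vary like the controls. Depth limits control replicate 2 most, with 156 reads at the median member.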
